A study of Homo sapiens with 24 samples.

Results

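The genes described here encode voltage-gated and potassium ion channels and the subunits that accompany them. They were chosen by symbol: the KCN families of potassium channels, the SCN sodium channel genes and the CACNA, CACNB and CACNG calcium channel genes, without symbols that carry -AS or -IT, and with a genomic span under 400 kb. Of the 16796 genes listed in at least 1 of the 5 deposited tables, 87 met this rule: 60 KCN, 10 SCN and 17 CACN genes. Of these, 86 are protein coding and 1, KCNQ1OT1, is a non-coding transcript annotated as antisense, which its symbol keeps in the list. Just inside the limit were KCNH8 with a span of 387.1 kb and KCNT2 with 382.8 kb, and just outside it were CACNB2 and KCNB2 with 401.1 and 401.0 kb. In all, 11 genes with the same kind of symbol were left out by span.

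The RNA came from 4 cell lines of human small-cell lung cancer, a neuroendocrine tumour type, and was sequenced after removal of ribosomal RNA. Each line received 0.1 nM lurbinectedin or the DMSO vehicle for 24 h: H187 and H209, labelled ISL1 high, and H82 and SHP-77, labelled ISL1 low. There were 3 libraries per line and treatment, 24 in all, which the design text calls biological triplicates. ISL1 is a LIM-homeodomain transcription factor, and lurbinectedin is a DNA-binding alkylating drug that stalls transcription by RNA polymerase II. All lines grew in RPMI-1640 with serum. Differences between ISL1 classes hold for these 4 lines, 2 in each class.

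Voltage-gated channels are built around a pore subunit that opens when the membrane potential changes. Sodium (Nav) channels start the action potential, calcium (Cav) channels couple it to secretion, and voltage-gated potassium (Kv) channels end it. Inward-rectifier (Kir) and K2P potassium channels set the resting potential, calcium-activated potassium channels answer to intracellular calcium, and auxiliary subunits change how much pore protein reaches the membrane and how it gates. Neuroendocrine cells are electrically excitable and release stored hormone when calcium enters through Cav channels.

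The labelled cell type was checked against marker genes, on the CPM scale, which divides a gene's count by the size of its library. Of 12 neuroendocrine markers, 11 were listed in H187 and H209 and 10 in H82 and SHP-77. No line listed CHGA, and SCG2 was also missing from H82 and NEUROD1 from SHP-77. The summed level of the listed markers was 3423 to 3534 CPM in lurbinectedin and 3665 to 3801 CPM in DMSO libraries of H187. In H209 it was 3296 to 3310 and 3204 to 3380 CPM. In H82 it was 1515 to 1544 and 1470 to 1507 CPM, and in SHP-77 4433 to 4619 and 4460 to 4716 CPM, so that the groups stood apart in H187 and H82. Taken singly, 1 marker rose and 3 fell of 11 in H187 (12.2% and 12.7% of all genes). In H82, 1 rose and 0 fell of 10 (1.55% and 1.38%). Between H82 and SHP-77 under DMSO, single markers differed by log2 values from -8.38 to 2.53. In no library did the summed fibroblast, leukocyte or endothelial markers exceed 9.284 CPM, and at most 3 of 6, 2 of 6 and 2 of 4 of them were listed for a line. In H209 the leukocyte markers listed, CD14 and CD68, summed to 3.04 to 3.58 CPM in lurbinectedin and 1.94 to 2.22 CPM in DMSO libraries. They were higher without overlap, 1 of the 2 genes being called, and their part in the responses below was not tested. Total counts ran between 24226553 and 36415190 per library.

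All potassium channel pores share a short stretch of protein, the selectivity filter, whose backbone takes the place of water around the potassium ion. The coding sequence for a pattern of serine or threonine, any residue, glycine, tyrosine or phenylalanine, and glycine was found in a GENCODE 29 transcript of each of the 50 potassium pore genes searched. It is shown for a gene of each main class that the results turn on: KCNA1 (a Kv channel), KCNH2 (the hERG channel), KCNJ2 (a Kir channel) and KCNK3 (a K2P channel). Capitals mark the 15 bases that encode the pattern, each within 1 exon, and coordinates are GRCh38. K2P subunits carry a pair of pore domains, and KCNK3 holds 2 matches, of which 1 is shown.
KCNA1, chr12:4912477-4912521, plus strand: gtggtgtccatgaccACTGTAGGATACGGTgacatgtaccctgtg
KCNH2, chr7:150951494-150951538, minus strand: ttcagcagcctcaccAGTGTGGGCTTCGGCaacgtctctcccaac
KCNJ2, chr17:70175448-70175492, plus strand: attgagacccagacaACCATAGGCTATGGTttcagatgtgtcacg
KCNK3, chr2:26727963-26728007, plus strand: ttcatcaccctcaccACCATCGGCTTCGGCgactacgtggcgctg

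Which of these channels a line expressed differed widely. The authors' tables list different genes for each line, with genes of few counts missing, by a rule not given in the sources used here. By that measure 60 members were listed for H187, 63 for H209, 59 for H82 and 57 for SHP-77, and 65 in the table of the 12 lurbinectedin libraries. Listed for all 4 lines were 32 members, for 3 lines 18, for 2 lines 20 and for 1 line 17. The single-line genes were KCNE1, KCNJ4 and KCNV1 in H187, CACNA1I, KCNG2, KCNJ5 and KCNN4 in H209, CACNA1S, CACNA2D4, KCNG4, KCNJ8 and KCNQ3 in H82, and KCNA2, KCNA10, KCNE4, SCN1A and SCN7A in SHP-77. Where a line's own table lacks a gene, its counts in lurbinectedin libraries are given below if the 12-library table holds them.

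Per kilobase of transcript, the scale on which genes can be compared, KCNE4 had the highest mean level over the lines that list a gene. This single-span subunit, which holds back some Kv channels, had 173, 172 and 171 CPM in the lurbinectedin libraries of SHP-77 and 178, 169 and 177 CPM in its DMSO libraries. The groups overlapped, and the DMSO level per length was 54.9 ± 1.54 CPM per kb (SD, n = 3). No other line's table lists KCNE4. In bulk libraries such as these, fewer cells that express a gene and less RNA per cell cannot be told apart. KCNA1, the Kv1.1 channel of axons, followed with a mean of 24.6 CPM per kb over the 2 lines that list it under DMSO, then KCNH2 with 21.6 and KCNK3 (the acid-sensitive TASK-1 leak channel) with 18.7 CPM per kb over all 4 lines. A line that does not list a gene is left out of these means. With such lines counted as 0, an alternative added after the data were seen, KCNH2 came first and KCNK3 second, followed by KCNE4 at 13.7, KCNH6 at 12.3 and KCNA1 at 12.3 CPM per kb over the 4 lines. The rest of the highest 10 over listing lines lay between 9.41 and 12.3 CPM per kb: KCNH6, a relative of hERG, CACNB3, a Cav beta subunit, CACNA1H, the T-type channel Cav3.2, CACNA1A, the P/Q-type channel Cav2.1 of nerve terminals, SCN3A (Nav1.3) and KCNJ8, the Kir6.1 pore, listed for H82 alone.

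Between lines, the DMSO levels of the 32 members listed everywhere mostly differed past the threshold, as did those of most genes. H187 had the highest level of 15 members, H209 of 6, H82 of 5 and SHP-77 of 6. The lowest level stood in H82 for 14, SHP-77 for 11, H209 for 4 and H187 for 3. These ranks rest on mean CPM scaled within each line, and neighbours in rank were not always called apart. CACNB1, for example, counts as highest in H209 at 10.44 CPM beside 10.43 CPM in H82, a pair that was not called. The range over lines was 4-fold or more for 22 members and 5.76-fold in the median. For 17 members all 6 pairs of lines differed at an adjusted p under 0.05. Neither the ranges nor the count with all pairs called were computed for all genes, so whether they set the channels apart was not tested. H187 against H209 had 16 members higher and 9 lower (86% of all 11408 shared genes were called, 42.7% higher and 43.3% lower). H187 against H82 had 20 and 8 (88.8%, 44.6% and 44.1%), and H187 against SHP-77 21 and 8 (88.2%, 44.2% and 44.1%). H209 against H82 had 18 and 11 (88.8%, 45% and 43.8%), H209 against SHP-77 18 and 10 (87.2%, 43.7% and 43.4%), and H82 against SHP-77 15 and 16 (88.8%, 44.5% and 44.4%). In either direction 25 to 31 of the 32 members were called. The members' median log2 difference was 0.18 for H187 against H209, 1.49 for H187 against H82, 0.51 for H187 against SHP-77, 1.02 for H209 against H82, 0.34 for H209 against SHP-77 and -0.31 for H82 against SHP-77, beside medians of all genes of at most 0.01. KCNJ14, a Kir2 channel named here after its values were seen, was the most even, and no neighbours in the order of its levels, H209, SHP-77, H82 and H187, differed past the threshold, while 2 of the 6 pairs did: H187 was lower than H209 (log2 difference -0.45 ± 0.13, SE, adjusted p = 0.0019, edgeR) and than SHP-77 (-0.41 ± 0.13, adjusted p = 0.0033).

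Among the Nav pore genes, 5 lie within a stretch of chromosome 2. In order along the chromosome they are SCN3A (chr2:165087520-165204067), SCN2A (chr2:165239402-165392310), SCN1A (chr2:165989160-166149216), SCN9A (chr2:166195187-166375987) and SCN7A (chr2:166403573-166486971; hg38, all on the minus strand except SCN2A). SCN3A, a channel of developing neurons, had DMSO levels of 195, 187.2 and 196 CPM in SHP-77, 167, 176 and 169 CPM in H209, 21.8, 22.1 and 23.4 CPM in H187 and 3.26, 3.41 and 3.11 CPM in H82. No lines overlapped, every pair was called, and the range was 59.1-fold. SCN2A (Nav1.2, of axons) was at 32.0 ± 0.325 CPM in H209, 20.7 ± 1.01 in SHP-77, 2.24 ± 0.452 in H187 and 0.651 ± 0.0952 in H82 (SD, n = 3 each), a 49.1-fold range with all pairs called. SCN9A (Nav1.7, of pain fibres) was at 32.0 ± 1.04 CPM in SHP-77, 30.4 ± 2.46 in H187, 4.58 ± 0.337 in H209 and 0.462 ± 0.144 in H82. For SCN9A the difference of H187 and SHP-77 did not pass the threshold (log2 difference -0.08 ± 0.07, SE, adjusted p = 0.28, edgeR). SCN1A and SCN7A, an atypical channel that senses sodium, were listed for SHP-77 alone, at 2.65 ± 0.123 and 21.9 ± 0.772 CPM under DMSO. SHP-77 thus listed all 5 of these genes, and H82 had the lowest level of the 3 that every line lists.

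Elsewhere in the genome, SCN8A (Nav1.6) was at 58.8 ± 1.61 CPM in H187, 30.6 ± 2.46 in H209, 21.1 ± 1.09 in SHP-77 and 13.1 ± 0.576 in H82 under DMSO, with every pair called. The beta subunit SCN3B, which modulates Nav gating, was highest in H82 at 46.0 ± 0.667 CPM and ranged 2.51-fold over the lines. Another beta subunit, SCN4B, was at 1.26 CPM in H82 and 1.18 in H187.

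Each line had its own set of Cav pores. CACNA1A (chr19:13206443-13506460, minus strand) was at 137 ± 4.24 CPM in H209 and 57.6 ± 2.83 in SHP-77 under DMSO, whereas the lurbinectedin libraries held 10, 13 and 8 counts of it in H187 and 4, 3 and 6 in H82. CACNA1B, the N-type channel that acts beside it at nerve terminals, was at 47.9 ± 2.38 CPM in H82, 34.6 ± 1.17 in H187 and 14.7 ± 1.58 in H209, with 4, 1 and 0 counts in treated SHP-77. Every line's table thus listed at least 1 of this pair, and that of H209 both. CACNA1D, an L-type channel of endocrine cells, was at 41.9 ± 3.26 CPM in SHP-77, 19.4 ± 0.432 in H187 and 1.19 ± 0.118 in H209, with 9, 12 and 7 counts in treated H82. The T-type gene CACNA1H was at 167 ± 3.18 CPM in H209, 86.5 ± 3.19 in H187 and 33.2 ± 2.14 in SHP-77, and had 2, 3 and 1 counts in treated H82. In H82, CACNA1A, CACNA1D and CACNA1H thus had at most 12 counts in any treated library. Of the remaining Cav pores, CACNA1G (T-type) was highest in H187 at 12.9 ± 0.890 CPM, CACNA1E (R-type) in H187 at 12.7 ± 1.13 CPM, and CACNA1F, the L-type channel of the retina, in H82 at 13.4 ± 0.234 CPM. CACNA1I in H209 and CACNA1S in H82 were under 1 CPM.

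Among the Cav partners, CACNB3 was at 87.4 ± 3.41 CPM in H187, 41.1 ± 1.13 CPM in H209, 17.3 ± 1.08 CPM in H82 and 10.0 ± 0.871 CPM in SHP-77 under DMSO, with all pairs called. CACNA2D2, an alpha-2-delta subunit that carries pores to the membrane, was at 31.5 ± 0.761 CPM in H187 and at 1.11 to 5.99 CPM in the other lines, a 28.4-fold range. Of its exonic bases 7.11% overlap a gene on the other strand, and whether the counting used strand is not stated. CACNG4, whose family also escorts AMPA receptors, was at 22.8 ± 0.362 CPM in H209, 1.51 in H82 and 0.959 in H187.

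The potassium channel pores formed as mixed a picture. KCNA1 (chr12:4909907-4918256, plus strand) had 301, 305 and 298 CPM in DMSO libraries of H209 and 87.8, 89.3 and 97.6 CPM in those of H187. In the lurbinectedin libraries it had 1, 0 and 0 counts in H82 and 1, 1 and 1 in SHP-77, so that nearly all its reads came from the ISL1-high lines. KCNN3, a small-conductance calcium-activated channel, was at 95.4 ± 9.21 CPM in H187 and 0.878 ± 0.267 in SHP-77. It had 2, 1 and 2 counts in treated H209 and 0 in treated H82, which allows up to 0.0316 CPM there (3 counts over the 3 libraries, counting error only). The K2P channel KCNK10 (TREK-2) was at 54.2 ± 2.36 CPM in H187, 19.1 ± 1.24 in SHP-77 and 5.64 ± 0.278 in H209, with 0, 0 and 2 counts in treated H82. KCNK9 (TASK-3) spanned a 50.2-fold range, at 55.9 ± 2.14 CPM in H187, 42.1 ± 2.12 in SHP-77, 14.6 ± 1.23 in H209 and 1.11 ± 0.170 in H82.

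In the ether-a-go-go family (KCNH), KCNH2 was at 199 ± 10.2 CPM in H187, 152 ± 5.82 in H209, 73.0 ± 8.35 in SHP-77 and 47.0 ± 5.54 in H82, all pairs called. KCNH6 was highest in H209 at 123 ± 4.42 CPM and lowest in SHP-77 at 3.42 ± 0.453 CPM, a 36.0-fold range. KCNH3 was highest in H187 at 86.0 ± 2.65 CPM and lowest in SHP-77 at 6.23 ± 0.559 CPM, a 13.8-fold range. KCNMB4, a brain subunit of the large-conductance calcium-activated channel, was at 21.9 CPM in H187, 18.7 in H209, 2.82 in SHP-77 and 0.484 in H82.

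By ISL1 class, 21 of the 32 shared members were higher and 6 lower in the ISL1-high lines under DMSO (89.1% of all genes were called, 45.3% higher and 43.8% lower). The members' median log2 difference was 1.07, beside 0.01 for all genes. A difference of class means can come from 1 line, and a stricter count asks for a call with the same sign in all 4 high-low line pairs. By that count 8 members were higher (15.4% of all genes) and 0 lower (15.2%), while 27 members had an unadjusted p under 0.05 between the class means. The 8 were CACNB3, KCNF1, KCNH2, KCNJ11, KCNMB3, KCNMB4, KCNQ1OT1 and SCN8A.

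In every comparison of classes, of levels or of responses, the SE and p measure the spread between libraries of a line. They do not measure the spread between lines of a class. KCNMB4 had the widest class difference of the 8, with a log2 value of 4.01 ± 0.08 (SE, adjusted p = 9.8e-27, edgeR). KCNF1, a silent Kv subunit that works beside other Kv pores, was at 24.2 ± 1.60 and 23.9 ± 0.787 CPM in H187 and H209, against 4.58 ± 0.688 and 3.59 ± 0.645 CPM in H82 and SHP-77 (2.48 ± 0.07, adjusted p = 4.3e-23). KCNJ11, the Kir6.2 pore of the ATP-sensitive channel that couples glucose to insulin release in beta cells, was at 32.7 ± 1.04 and 32.1 ± 0.194 CPM, against 9.26 ± 0.534 and 8.02 ± 0.203 CPM (1.82 ± 0.05, adjusted p = 1.9e-24). For both genes H187 and H209 did not differ past the threshold. The non-coding KCNQ1OT1, antisense within the KCNQ1 locus, was at 30.7 ± 11.1 and 30.7 ± 4.39 CPM, against 11.4 ± 0.941 and 17.2 ± 2.57 CPM (1.04 ± 0.11, adjusted p = 5.7e-10). The summed neuroendocrine markers were highest in SHP-77 and lowest in H82, both ISL1 low, and their part in these differences was not tested.

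In the 12 lurbinectedin libraries, where 65 members were tested, 37 were higher and 15 lower in the ISL1-high lines (88.9% of all genes called, 47% higher and 41.9% lower). With the same sign in all 4 high-low line pairs, 11 were higher (17% of all genes) and 2 lower (15.6%). The 8 named above were among the 11, joined by CACNA1H, KCNA1 and KCNH8, which are missing from at least 1 line table. One of the lower members was KCNJ2, the Kir2.1 pore, of which treated H187 held 4, 5 and 5 counts.

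Lurbinectedin changed members in both directions, most often in H209, and by less than 2-fold wherever a change was called. Compared with DMSO, 5 of 60 members rose and 11 fell in H187 (24.9% of all genes were called, 12.2% higher and 12.7% lower), and 13 of 63 rose and 13 fell in H209 (45.2%, 22.7% and 22.5%). In H82, 3 of 59 rose and 0 fell (2.92%, 1.55% and 1.38%; 16 members had an unadjusted p under 0.05), and in SHP-77, 1 of 57 rose and 2 fell (5.19%, 1.98% and 3.21%). The members' share called lay near that of all genes in each line. Their median log2 fold change was 0.01 for H187, -0.06 for H209, 0.06 for H82 and -0.01 for SHP-77, beside medians of all genes that round to 0.00. Lurbinectedin and DMSO libraries did not overlap for 23 of 60 members in H187 (38.8% of all genes did not), 29 of 63 for H209 (52.1%), 13 of 59 for H82 (21.8%) and 12 of 57 for SHP-77 (22%). Of these, 14, 23, 3 and 3 were also called (24%, 42.5%, 2.8% and 5.16% of all genes), so the members' counts lay near those of genes at large. The count called in H187 was 10 without lurbinectedin library 2 or without lurbinectedin library 3.

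**Figure D1:**
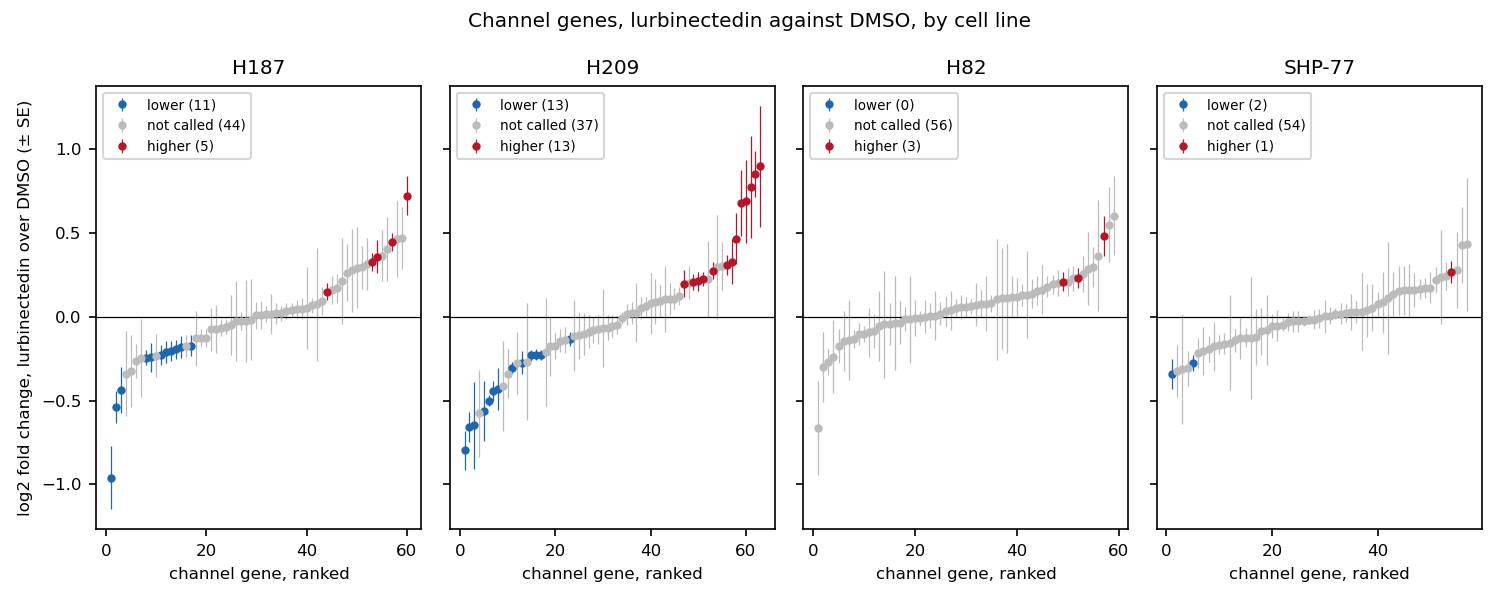
Log2 fold change of lurbinectedin over DMSO with its SE for each channel gene, ranked within each line, n = 3 libraries per group. Called rises and falls are coloured: 5 and 11 for H187, 13 and 13 for H209, 3 and 0 for H82, and 1 and 2 for SHP-77.

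In both ISL1-high lines 47 members were listed, and 9 of them were called in each. The direction was the same for 8: CACNB1, CACNB3 and SCN3B rose, and KCNH5, KCNH8, KCNK10, KCNMB2 and SCN3A fell. These 8 make up 61.5% of the calls in H187 and 44.4% of those in H209 among shared members, beside 72.3% and 38.9% for all genes. The other one, KCNK12, fell in H187 and rose in H209.

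Promoter sequence was read for members whose change was among the largest or recurred: KCNMB2, which fell, and KCNA3, KCNJ2 and KCNC1, which rose, with the values given after the sequences. Each line below is the 250 bases before a RefSeq start of the gene (GRCh38.p14, read in the direction of transcription). For KCNMB2 and KCNA3 that start lies 138 and 93 bases inside the gene as deposited, so the last 138 and 93 bases shown fall within it. For KCNC1 and KCNJ2 it lies 0 and 3 bases from the deposited start.
KCNMB2, chr3:178536186-178536435, plus strand: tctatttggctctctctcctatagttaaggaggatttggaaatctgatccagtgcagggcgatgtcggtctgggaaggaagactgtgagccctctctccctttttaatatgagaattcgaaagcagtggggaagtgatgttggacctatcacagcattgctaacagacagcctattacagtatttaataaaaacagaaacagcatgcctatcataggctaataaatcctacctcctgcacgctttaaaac
KCNA3, chr1:110674941-110675190, minus strand: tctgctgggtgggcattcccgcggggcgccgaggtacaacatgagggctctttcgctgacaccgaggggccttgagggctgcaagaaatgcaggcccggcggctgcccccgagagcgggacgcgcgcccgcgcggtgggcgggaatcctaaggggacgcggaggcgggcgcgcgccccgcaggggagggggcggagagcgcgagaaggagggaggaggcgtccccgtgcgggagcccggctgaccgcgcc
KCNC1, chr11:17735698-17735947, plus strand: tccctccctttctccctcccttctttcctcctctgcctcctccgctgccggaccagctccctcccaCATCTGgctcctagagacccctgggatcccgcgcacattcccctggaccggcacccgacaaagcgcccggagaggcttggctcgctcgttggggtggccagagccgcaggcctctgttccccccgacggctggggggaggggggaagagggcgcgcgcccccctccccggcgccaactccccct
KCNJ2, chr17:70169282-70169531, plus strand: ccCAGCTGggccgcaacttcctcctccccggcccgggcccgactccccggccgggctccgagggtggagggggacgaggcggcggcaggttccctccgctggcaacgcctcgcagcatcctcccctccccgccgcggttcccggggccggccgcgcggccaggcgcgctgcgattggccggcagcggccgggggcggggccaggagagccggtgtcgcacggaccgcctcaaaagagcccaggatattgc

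Capitals mark matches, on either strand, to any of 5 short motifs: TGACGT (bound by CREB and ATF factors), TGANTCA (AP-1), CAGCTG and CAGATG (E-boxes) and TAATTA (a homeodomain core). KCNC1 held 1 CAGATG and KCNJ2 1 CAGCTG, and neither KCNMB2 nor KCNA3 held a match. Of the 62 members with a promoter in the RefSeq table, 4 held TGACGT (6.45%, beside 9.81% of all 12014 promoters), 2 TGANTCA (3.23% and 4.14%), 9 CAGCTG (14.5% and 13.0%), 8 CAGATG (12.9% and 8.41%) and 2 TAATTA (3.23% and 2.36%). GC content was 42.8% in the stretch shown for KCNMB2 and 75.2%, 71.2% and 77.6% in those for KCNA3, KCNC1 and KCNJ2. The medians were 65.2% for the members and 64.4% for all promoters. The median was 73.2% for 4 members that rose and 63.6% for 9 that fell in H187, but 62.4% for 9 that rose and 70.0% for 9 that fell in H209.

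KCNMB2 (chr3:178536298-178844429, plus strand), a subunit that inactivates large-conductance calcium-activated channels, showed the largest called fall in both lines. It had 1.48, 1.62 and 1.66 CPM in lurbinectedin libraries of H187 and 2.61, 3.803 and 2.94 CPM in DMSO libraries. In H209 the values were 5.41, 5.21 and 3.75 CPM with lurbinectedin and 9.14, 8.02 and 7.79 CPM with DMSO. The groups stood apart in both lines, with a log2 fold change of -0.96 ± 0.19 in H187 (SE, adjusted p = 6.9e-04) and -0.80 ± 0.12 in H209 (adjusted p = 1.7e-07). In SHP-77 the means were 4.88 ± 0.405 CPM with lurbinectedin and 6.03 ± 0.316 CPM with DMSO (SD, n = 3 each), a difference that was not called. KCNH5, an ether-a-go-go pore gene, fell with log2 fold changes of -0.44 ± 0.14 in H187 and -0.44 ± 0.06 in H209 (adjusted p = 0.023 and 7.5e-08), and the call in H187 was lost without DMSO library 1 or lurbinectedin library 1 or 2 (adjusted p up to 0.11).

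SCN3B (chr11:123629187-123654607, minus strand) rose in both ISL1-high lines. In H187 it had 32.3, 31.3 and 30.6 CPM with lurbinectedin and 23.9, 25.2 and 26.0 CPM with DMSO. In H209 it had 26.5, 25.9 and 28.6 CPM with lurbinectedin and 20.9, 22.6 and 21.8 CPM with DMSO. All treated libraries lay above all DMSO libraries of their line, with log2 fold changes of 0.33 ± 0.06 (adjusted p = 1.8e-04) and 0.31 ± 0.06 (adjusted p = 2.1e-05). In H82 SCN3B was at 48.1 ± 1.52 CPM with lurbinectedin and 46.0 ± 0.667 CPM with DMSO, and in SHP-77 at 18.6 ± 1.44 and 18.3 ± 1.07 CPM, with no call in either line.

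The other called rises in H187 were those of KCNA3, KCNC1, CACNB1 and CACNB3. KCNA3, the Kv1.3 channel known from T cells, had 6.43, 6.71 and 7.06 CPM with lurbinectedin and 4.06, 4.00 and 4.18 CPM with DMSO, the largest rise at 0.72 ± 0.12 (adjusted p = 8.2e-05). In H82, the other line that lists it, KCNA3 was at 5.98 ± 0.557 CPM with lurbinectedin and 6.77 ± 0.413 CPM with DMSO, which was not called. KCNC1, the Kv3.1 channel of fast-firing neurons, had 31.6, 32.1 and 30.8 CPM with lurbinectedin and 22.9, 22.8 and 23.6 CPM with DMSO in H187 (0.45 ± 0.05, adjusted p = 3.5e-06). The treated libraries of H187 stood above the DMSO libraries for both genes. KCNC1 was also the single called rise in SHP-77, with 16.8, 19.6 and 19.3 CPM against 14.8, 15.4 and 16.0 CPM (0.27 ± 0.07, adjusted p = 0.017), a call lost without DMSO library 1 or 2 or lurbinectedin library 2 or 3 (adjusted p up to 0.13). CACNB1, a Cav beta subunit, had a log2 fold change of 0.36 ± 0.10 in H187 (adjusted p = 0.012), a call lost without DMSO library 3 or lurbinectedin library 3 (adjusted p up to 0.070).

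The remaining named falls in H187 were those of CACNA1E, KCNK10 and KCNN3. CACNA1E had 8.29, 9.62 and 8.21 CPM with lurbinectedin and 11.5, 13.8 and 12.8 CPM with DMSO, without overlap (-0.54 ± 0.09, adjusted p = 2.1e-04). KCNK10 averaged 45.8 ± 1.41 CPM with lurbinectedin and 54.2 ± 2.36 CPM with DMSO (-0.24 ± 0.05, adjusted p = 6.0e-04). KCNN3 averaged 81.4 ± 4.89 and 95.4 ± 9.21 CPM (-0.23 ± 0.06, adjusted p = 0.0067), with an adjusted p of 0.052 without lurbinectedin library 1. KCNK12, KCNH8, SCN9A, CACNA1B, SCN3A and KCNF1 also fell, each by less than KCNK10. The summed neuroendocrine markers were also lower in treated H187, without overlap (3423 to 3534 CPM with lurbinectedin and 3665 to 3801 CPM with DMSO). Of the 11 markers tested singly, 1 rose and 3 fell (12.2% and 12.7% of all genes), with a median log2 fold change of -0.03. The part of the markers in these falls was not tested.

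**Figure D2:**
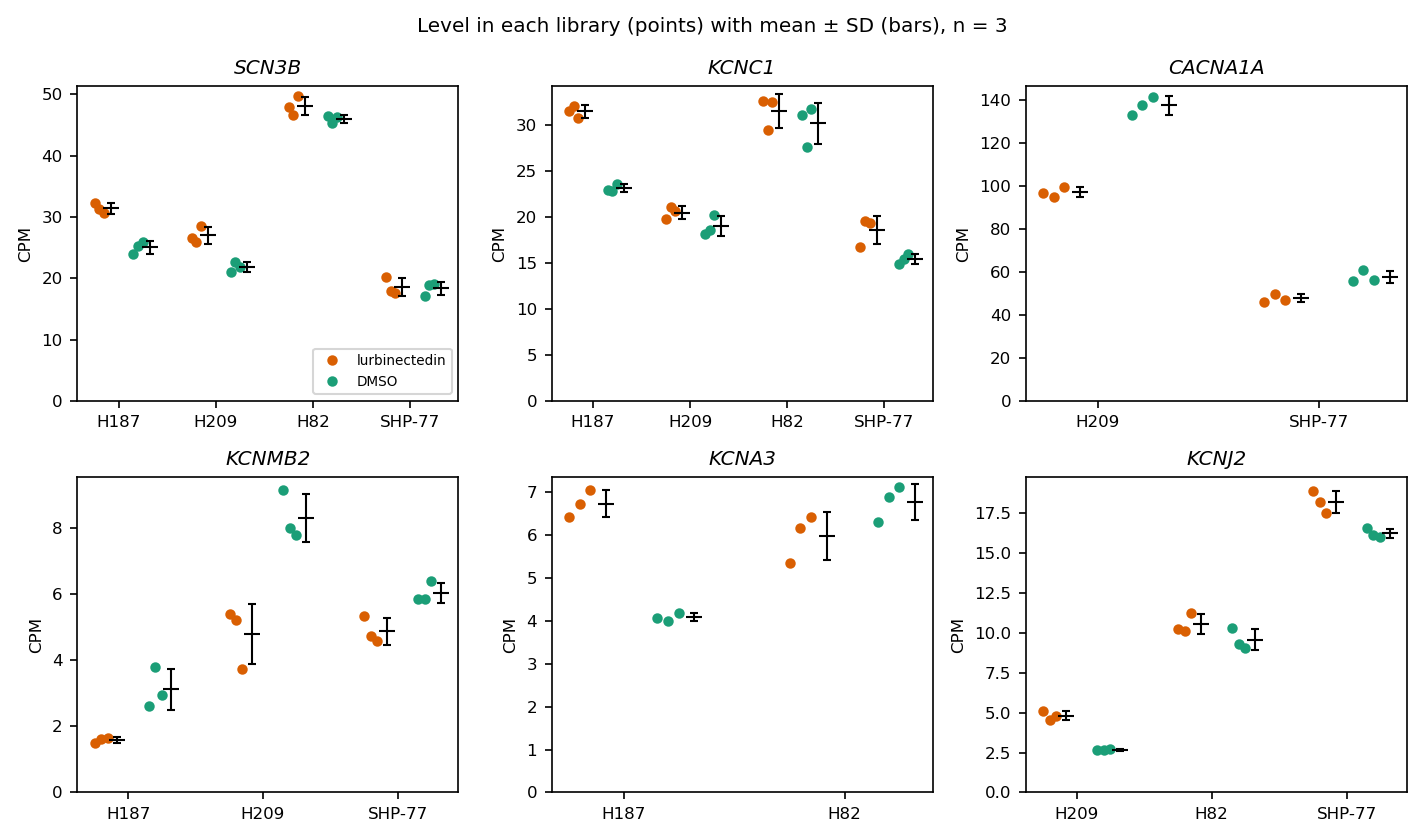
CPM in each library of 6 channel genes in the lines whose tables list them, lurbinectedin left of DMSO, with mean and SD (n = 3). SCN3B and KCNC1 in H187 and CACNA1A and KCNJ2 in H209 show groups that stand apart, with CACNA1A at 94.9 to 99.5 CPM in treated H209 and 133 to 141 CPM in its DMSO libraries.

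In H209 the fall of CACNA1A had the smallest p of all members. It had 96.5, 94.9 and 99.5 CPM with lurbinectedin and 133, 138 and 141 CPM with DMSO, groups far apart, for a log2 fold change of -0.50 ± 0.03 (adjusted p = 2.9e-17). In SHP-77 it fell as well, to 46.2, 49.7 and 46.9 CPM with lurbinectedin, against 55.9, 60.9 and 56.1 CPM with DMSO (-0.28 ± 0.05, adjusted p = 9.9e-04). Both calls held under each of the 13 alternatives run for them. KCNJ6, the GIRK2 pore opened by G proteins, had 7.10, 7.71 and 8.41 CPM with lurbinectedin and 12.5, 12.9 and 11.2 CPM with DMSO in H209 (-0.66 ± 0.09, adjusted p = 3.9e-08). In SHP-77 KCNJ6 was at 16.0 ± 1.36 CPM with lurbinectedin and 15.2 ± 0.808 CPM with DMSO, and was not called. CACNA2D2 fell in H209 to 1.90 ± 0.315 CPM, against 2.79 ± 0.180 CPM with DMSO (-0.56 ± 0.18, adjusted p = 0.0080), a call lost without lurbinectedin library 3 (adjusted p = 0.052).

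Smaller falls in H209 touched several of its most abundant channels. KCNA1 had 255, 255 and 264 CPM with lurbinectedin and 301, 305 and 298 CPM with DMSO (-0.23 ± 0.03, adjusted p = 3.4e-08). KCNH6 was at 99.4 ± 3.52 CPM with lurbinectedin and 123 ± 4.42 CPM with DMSO (-0.30 ± 0.03, adjusted p = 3.5e-10). CACNA1H was at 142 ± 1.12 and 167 ± 3.18 CPM (-0.23 ± 0.03), and SCN3A at 146 ± 3.24 and 171 ± 4.72 CPM (-0.23 ± 0.03), both called. None of these 4, named here for their level after their values were seen, overlapped between groups. KCNH2 was at 151 ± 4.45 CPM with lurbinectedin and 152 ± 5.82 CPM with DMSO in this line (-0.01 ± 0.03) and was not called. CACNA1G, KCNH8, KCNK3 and KCNK10 made up the other called falls of H209, of which KCNK3 overlapped between groups. In H187, KCNA1 was at 93.9 ± 1.65 CPM with lurbinectedin and 91.6 ± 5.29 CPM with DMSO, also without a call.

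Among the rises in H209, KCNJ2 (chr17:70169535-70180042, plus strand) had 5.11, 4.55 and 4.76 CPM in lurbinectedin and 2.65, 2.64 and 2.72 CPM in DMSO libraries. The groups stood well apart, and the log2 fold change was 0.85 ± 0.14 (adjusted p = 2.0e-06). KCNJ2 was at 10.6 ± 0.631 CPM with lurbinectedin and 9.57 ± 0.653 CPM with DMSO in H82, and at 18.2 ± 0.710 and 16.2 ± 0.272 CPM in SHP-77, without a call. CACNA1F rose in H209 to 2.65 ± 0.356 CPM, against 1.62 ± 0.474 CPM with DMSO (0.68 ± 0.20, adjusted p = 0.0039). KCNK12, a K2P channel known as THIK-2, rose to 3.64 ± 0.119 CPM, against 2.66 ± 0.337 CPM (0.47 ± 0.15, adjusted p = 0.011), a call lost without DMSO library 2 (adjusted p = 0.085). KCNMB3, an accessory subunit of the large-conductance channel, had a log2 fold change of 0.33 ± 0.13 (adjusted p = 0.042), lost in 6 of 14 alternatives, among them those without DMSO library 1 or lurbinectedin library 1 or 2. Of its exonic bases 9.04% overlap a gene on the other strand. CACNB1, CACNB3, CACNG4, KCNJ3, KCNJ5, KCNJ11, KCNK6 and KCNT2 also rose, and the levels of KCNJ3 and KCNJ5 overlapped between groups.

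In H82 the called rises were KCNA6, KCNH2 and KCNK5. KCNA6, a Kv1 channel, had 4.99, 4.86 and 4.93 CPM with lurbinectedin and 3.35, 3.47 and 3.78 CPM with DMSO (0.48 ± 0.12, adjusted p = 0.028). KCNH2 was at 55.2 ± 1.80 CPM with lurbinectedin and 47.0 ± 5.54 CPM with DMSO (0.23 ± 0.06, adjusted p = 0.039), and KCNK5, the alkaline-activated K2P channel TASK-2, at 27.1 ± 1.22 and 23.5 ± 0.875 CPM (0.21 ± 0.06, adjusted p = 0.045). No groups overlapped, but each of the 3 calls was lost without DMSO library 1 or 2 or any lurbinectedin library, and after a correction for transcript GC content, and those of KCNA6 and KCNK5 also by DESeq2. Without DMSO library 3 the count of called members was 7.

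The second called fall in SHP-77, beside CACNA1A, was that of KCNH8, an ether-a-go-go pore gene, at 7.39, 7.61 and 7.04 CPM with lurbinectedin and 8.47, 9.07 and 10.3 CPM with DMSO (-0.34 ± 0.09, adjusted p = 0.026). The groups did not overlap, and the call was lost without DMSO library 2 or 3 or lurbinectedin library 1 or 3, and by DESeq2 (adjusted p up to 0.15). Without DMSO library 2 or lurbinectedin library 3 the count in SHP-77 was 1, and without DMSO library 1 it was 4.

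Set by genomic span, falls were a larger share of long than of short members in H187, H209 and SHP-77, and rises lay mostly among short members, as for genes at large. Of the 14 members spanning 150 to 400 kb in H187, 0 rose and 7 fell, beside 1.79% and 38.4% of all genes of that span. Of the 19 spanning 50 to 150 kb, 0 rose and 2 fell (9.98% and 12.6%), and of the 27 under 50 kb, 5 rose and 2 fell (14.9% and 6.93%). In H209, 2 of 14 long members rose and 5 fell (6.97% and 51.1%), 1 of 19 of middle span rose and 5 fell (19% and 26.9%), and 10 of 30 short members rose and 3 fell (26.7% and 15.8%). In SHP-77, 0 of 18 long members rose and 2 fell (0.169% and 12.3%), none of 14 of middle span was called (1.18% and 1.59%), and 1 of 25 short members rose and 0 fell (2.57% and 0.877%). In H82, none of 9 long (0.0905% and 4.25%) or 18 middle members (0.429% and 0.396%) was called, and 3 of 32 short members rose and 0 fell (2.17% and 0.394%). The long members had a median log2 fold change of -0.22 in H187 (-0.15 for all genes of that span), -0.16 for H209 (-0.16), -0.09 for H82 (-0.06) and -0.13 for SHP-77 (-0.07).

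**Figure D3:**
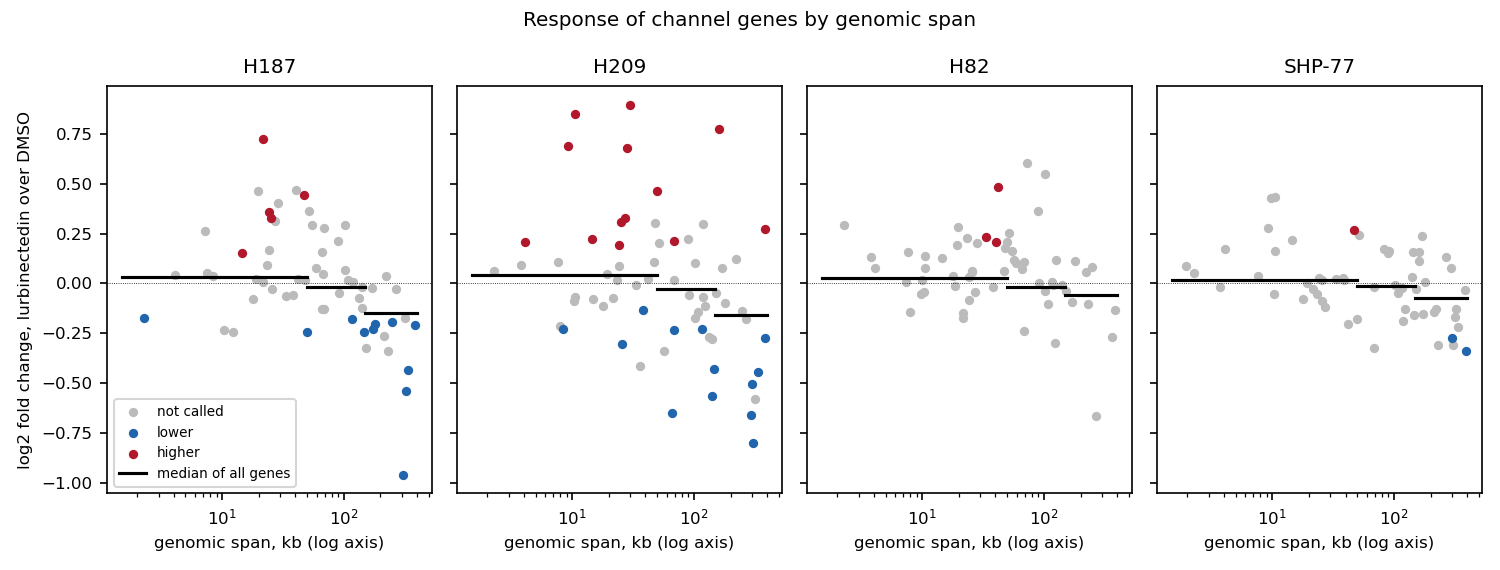
Log2 fold change of lurbinectedin over DMSO against genomic span in kb (log axis) for the channel genes of each line, called rises and falls coloured, with lines at the median of all genes in the bins 0 to 50, 50 to 150 and 150 to 400 kb. Called falls are 7 of 14, 5 of 14 and 2 of 18 of the longest bin in H187, H209 and SHP-77, while KCNT2 (382.8 kb) is a called rise in H209.

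A few members departed from that order and are named after their values were seen. KCNT2 (chr1:196225781-196608576, minus strand), a sodium-activated potassium channel, spans 382.8 kb and rose in H209, with 42.1, 39.5 and 41.1 CPM in lurbinectedin and 30.9, 34.6 and 35.9 CPM in DMSO libraries (0.27 ± 0.05, adjusted p = 1.1e-05). The groups did not overlap. KCNT2 was not called in H82 (-0.13 ± 0.06) or SHP-77 (-0.03 ± 0.05). KCNA1 fell in H209 with a span of 8.35 kb, and KCNF1 in H187 with 2.289 kb. Of the channel genes left out for their span, 8 of 10 tested fell in H187 (82.4% of all genes spanning 400 kb or more), 8 of 8 in H209 (80.7%), 1 of 9 in H82 (29%) and 4 of 9 in SHP-77 (53.2%). None rose, beside 0.893% of all genes of that span in H187, 2.8% in H209 and 0 in H82 and SHP-77. Falls were thus common among all genes of that span.

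Genes outside the symbol rule were counted for context. Of 63 other channel pore genes (HCN, TRP, ryanodine receptor, chloride channel and related genes), 4 rose and 5 fell of 33 tested in H187 (12.2% and 12.7% of all genes), 8 and 7 of 34 for H209 (22.7% and 22.5%), 1 and 0 of 32 for H82 (1.55% and 1.38%), and 1 and 0 of 33 for SHP-77 (1.98% and 3.21%). Of 33 channel modulators (ankyrins, calmodulins, FGF homologous factors, DPP subunits and the like), 1 rose and 9 fell of 23 in H187, 2 and 10 of 22 for H209, 0 and 1 of 22 for H82, and 0 and 5 of 21 for SHP-77, beside the same shares of all genes. Most of these falls lay among modulators spanning 150 kb or more: 8 of 11 in H187 (48.2% of all genes of that span), 8 of 12 in H209 (57.5%), 1 of 12 in H82 (9.73%) and 5 of 12 in SHP-77 (21.2%). Of the shorter modulators, 1 of 12 fell in H187, 2 of 10 in H209, and none in H82 or SHP-77.

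Whether the response differed by class was tested as the mean lurbinectedin effect of the ISL1-high lines less the mean effect of the ISL1-low lines. Of the 32 members tested, 2 had a higher and 4 a lower effect in the ISL1-high lines (31.4% of all genes were called, 15.9% higher and 15.5% lower). SCN3B differed by 0.28 ± 0.06 (SE, adjusted p = 1.7e-04), which held in each of 30 alternatives. SCN3A differed by -0.19 ± 0.06 (adjusted p = 0.019): it fell in H187 and H209 and had log2 fold changes of 0.01 ± 0.14 in H82 and -0.02 ± 0.03 in SHP-77. Without lurbinectedin library 2 of H82 its adjusted p was 0.20. KCNK9 differed by -0.32 ± 0.11 (adjusted p = 0.025), although its effect was called in no single line, with 0.55 ± 0.22 in H82, and the call was lost without DMSO library 1 or 3 or lurbinectedin library 2 of H82 (adjusted p up to 0.18). KCNH2 (-0.16 ± 0.06, adjusted p = 0.044), CACNA2D2 (-0.35 ± 0.14, adjusted p = 0.048) and CACNB1 (0.25 ± 0.10, adjusted p = 0.0497) lost their calls in 16, 15 and 20 of 30 alternatives. The count was 3 without DMSO or lurbinectedin library 1 of H209, DMSO library 1 of H82 or lurbinectedin library 2 of H82.

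The ISL1-high lines also differed from each other. In a contrast of H209 minus H187, added after the data were seen, 1 of the 32 members was higher and 2 lower (11.1% of all genes were called, 5.65% higher and 5.46% lower). KCNK12 differed by 0.71 ± 0.18 (adjusted p = 0.0085). In H187 it had 21.0, 18.7 and 16.7 CPM with lurbinectedin and 19.2, 22.9 and 24.4 CPM with DMSO, where the groups overlapped, and in H209 3.78, 3.57 and 3.58 and 2.93, 2.28 and 2.76 CPM, where they did not. KCNC1 differed by -0.34 ± 0.09 (adjusted p = 0.0092) and KCNH6 by -0.28 ± 0.07 (adjusted p = 0.0035).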

How the data were processed

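Gene counts per library were deposited by the authors in 1 table per line and 1 table of the 12 lurbinectedin libraries, beside log2 CPM, log2 fold changes, p-values and FDR values of their own comparisons and a signed fold change, read here as a score and not used. The submitters' processing notes name STAR 2.7.10a, featureCounts, Subread 2.0.3, edgeR 4.2.0 and hg38. The deposited tables lack genes of few counts, by a rule not given in the sources used here, and whether counting used strand is not stated. Per the labels' protocols, 100 ng of RNA entered a stranded total RNA kit with ribosomal depletion.

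Counts were refitted with edgeR 4.0.16 (R 4.3.3, limma 3.58.1): filterByExpr (minimum count 10, total 15), TMM scaling, the quasi-likelihood test, and Benjamini-Hochberg adjustment over all genes of a table, called at 0.05. Every adjusted p is from that test. CPM are on TMM-scaled library sizes within a line's table. Levels between lines were tested over the 11408 genes in all 4 tables. Members absent from one are given by counts or not at all. Alternatives included DESeq2 1.42.0, other scaling, filters and single libraries left out.

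Within each line, up to 5 members per direction are named, by largest change, if called, with libraries that do not overlap and an average log2 CPM of 1 or more. Also named are up to 6 response differences by smallest p, the 10 highest per kb, the 8 with the widest range over lines, the 8 highest among those missing from a line table, and Nav and Cav pores. The members and lists were chosen with earlier results of these data known. Libraries of one group differed by more than sampling noise. The upper limit given for a gene without counts covers counting error only. Some members are counted but not reported by name here.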

Additional observations from a re-analysis of the deposited data

Results flagged for a closer look

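Response differences between groups of lines, each by a tested contrast of log2 fold changes (edgeR), were called for 9 results. For the ISL1 classes 18.8% of the 32 members were called, beside 31.4% of all genes. For H209 less H187 the shares were 9.4% and 11.1%. For the ISL1-high less the ISL1-low lines, SCN3B differed by 0.28 ± 0.06 (SE, adjusted p = 1.7e-04) and CACNB1 by 0.25 ± 0.10 (adjusted p = 0.0497), both higher in the ISL1-high lines. SCN3A differed by -0.19 ± 0.06 (adjusted p = 0.019), KCNK9 by -0.32 ± 0.11 (adjusted p = 0.025), KCNH2 by -0.16 ± 0.06 (adjusted p = 0.044) and CACNA2D2 by -0.35 ± 0.14 (adjusted p = 0.048). Of 30 alternatives, the calls of KCNH2, CACNA2D2 and CACNB1 were lost in 16, 15 and 20. Those of KCNK9, SCN3A and SCN3B were lost in 3, 1 and 0. For H209 less H187, KCNK12 differed by 0.71 ± 0.18 (adjusted p = 0.0085), KCNC1 by -0.34 ± 0.09 (adjusted p = 0.0092) and KCNH6 by -0.28 ± 0.07 (adjusted p = 0.0035).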

How the results depend on the processing

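Of 31 calls of named members, 15 held under every alternative run for them and 16 were lost under at least 1, while 0 changed sign. Fitting all 24 samples together, which leaves only the 32 shared members, gave 8 called members in H187, 9 in H209 and 1 in SHP-77. In H82, where 3 were called, DESeq2 called 1, a GC correction added after the data were seen 1, and 5 were called in the authors' deposited table. Between class means, 11 of 32 members under DMSO differed with the same sign in every high-low line pair, each pair called or not (39.1% of all genes). Under lurbinectedin 15 of 65 did (40%). Without that demand on sign, 37 members were higher and 15 lower between class means under lurbinectedin. The authors' deposited table called far fewer there, 18, and CACNA1H and KCNH8 were not among them. Some signs differed as well, such as that of CACNA1B (log2 difference -0.39 as deposited and 3.41 here). The value here sets the mean log2 levels of the lines against each other, and treated SHP-77 held few counts of CACNA1B. Its sign was not the same in all 4 high-low line pairs. Counting lines that do not list a gene as 0, also added later, lowered the mean level per kb of 5 of the 10 highest members, KCNE4 to 13.7 and KCNA1 to 12.3 CPM per kb. The cause of these differences was not tested. Leaving out single libraries gave ranges of 10 to 14 called members for H187, 21 to 24 for H209, 0 to 7 for H82, 1 to 4 for SHP-77, 3 to 6 for the response difference, 26 to 27 for classes under DMSO and 51 to 53 under lurbinectedin. Deviations of same-numbered lurbinectedin and DMSO libraries had correlations from -0.21 to 0.18. Other matches reached 0.30, for lurbinectedin library 2 and DMSO library 3 of H187. With 3 libraries per group these values cannot decide whether samples were paired, and the main fits treat them as unpaired. The fit with a replicate block called 12 members for H187, 25 for H209, 5 for H82 and 3 for SHP-77. Members near or under 1 CPM are limited by depth.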
